A study of Mus musculus with 2 samples.

Results

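Barcodes with dendritic cell transcripts were picked out of a capture of CD3-selected tumour cells of mouse B16F10 melanoma. Of the 11318 barcodes that passed the quality limits, 115 met the rule (1.02%, exact 95% binomial interval 0.840 to 1.22%). Among the 115, 38 had pigment gene levels within the range of melanoma-like barcodes, so 1.02% is not a share of dendritic cells. A barcode, the tag that marks 1 captured cell or cell aggregate, needed at least 500 genes and at most 25% of its counts in mitochondrial genes. It then needed at least 2 of 7 dendritic cell genes (Flt3, Xcr1, Clec9a, Cd209a, Zbtb46, Fscn1 and Ccl22) at 5 or more counts and at most 1 of 7 macrophage genes (Csf1r, C1qa, C1qb, C1qc, Adgre1, Fcgr1 and Lyz2) at 5 or more. The 115 barcodes are called the dendritic gate here. They were divided further by Cd209a, by Xcr1 or Clec9a, and by Fscn1 or Ccl22, each at 5 or more counts. Levels of these 14 genes therefore chose the members and are given as description.

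Conventional dendritic cells take up antigen, present it to T cells on MHC molecules and develop under the receptor Flt3. Type 1 cells, marked by Xcr1 and Clec9a, are known for presenting to CD8 T cells, and type 2 and monocyte-derived cells, many of them bearing Cd209a, for presenting to CD4 T cells. A mature or migratory state marked by Ccr7, Fscn1 and Ccl22 can arise from either type, and CCL22 draws cells with the receptor CCR4, regulatory T cells among them. Foxp3 encodes the transcription factor that defines regulatory T cells and is not known as a dendritic cell gene.

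The tumours had grown under the skin and were taken at day 14. Both Nr4a knockout and wild-type cells, stained with hashtag antibodies, went into 1 pooled BD Rhapsody capture with about 20000 cells loaded, and its 2 libraries, of mRNA and of hashtags, make up the series. Cells were enriched by magnetic positive selection for CD3, so a dendritic cell is a cell the selection was not aimed at. Which Nr4a genes were deleted, how the deletion was made and which hashtag marks which genotype are not stated in the labels, so the genotypes were not compared. With 1 capture there are no replicates: no test was made, every interval covers counting error only, and genes are named by a fold of fixed size.

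The mRNA table held 12016 barcodes and 27635 genes, and 11808 of those barcodes, the 115 members included, were also in the hashtag table. Members had a median of 79725 counts and 4278 genes, with totals between 6177 and 538570 counts, against a median of 26436 counts over all 11318 barcodes. Levels below are CPM, the summed counts of a gene over a group's barcodes, scaled by their summed counts of all genes, so deep barcodes weigh more. Most members met the rule narrowly: 94 had 2 of the dendritic genes, 18 had 3 and 3 had 4. Among the members 81 had none of the macrophage genes at 5 counts and 34 had 1. In 15 members the second-highest dendritic gene lay at exactly 5 counts and in 12 at 6, while just outside, 21 barcodes had it at 4 counts and 40 at 3. A further 76 barcodes had the dendritic genes but also 2 or more of the macrophage genes.

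Of the 115 members, 62 carried Fscn1 or Ccl22 (53.9%, 44.4 to 63.2%), 44 carried Cd209a (38.3%, 29.4 to 47.8%) and 21 carried Xcr1 or Clec9a (18.3%, 11.7 to 26.5%). Only 1 of these marks was present in 101 members, which formed 3 arms: 51 barcodes with Fscn1 or Ccl22 (median 188841 counts), 37 with Cd209a (median 48870 counts) and 13 with Xcr1 or Clec9a (median 79725 counts). Several marks were found on 13 members and none on 1. Flt3, the receptor tyrosine kinase that supports dendritic cell development, lies at chr5:147330741-147400489 on the minus strand of GRCm38, and Zbtb46, a transcription factor of conventional dendritic cells, at chr2:181387762-181459426 (minus). Cd209a, a C-type lectin, lies at chr8:3743397-3748984 (minus), and Ccl22, a chemokine, at chr8:94745590-94751699 (plus). The chemokine receptor gene Xcr1 is at chr9:123852315-123862029 (minus) and Clec9a, a receptor for dead cells, at chr6:129408862-129424763 (plus). Fscn1, which encodes the actin-bundling protein fascin, is at chr5:142960343-142973185 (plus), the MHC class II gene H2-Ab1 at chr17:34257689-34269419 (plus) and Foxp3 at chrX:7573644-7595245 (plus). All of them are annotated as protein-coding in GENCODE M21.

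Reads of pigment genes and of T cell genes were on many members, and unevenly by arm. Pigment reads, defined as at least 2 of Pmel, Mlana, Dct, Tyr and Tyrp1 at 5 or more counts, were on 49 members (42.6%). T cell reads, at least 2 of Cd3d, Cd3e, Cd3g and Trac at 5 or more counts, were on 50 members (43.5%, 34.3 to 53.0%). In all, 38 members had T cell reads alone, 37 pigment reads alone, 12 both and 28 neither. Pigment reads marked 36 of 51 barcodes in the Fscn1 or Ccl22 arm (70.6%), 4 of 37 in the Cd209a arm (10.8%) and 3 of 13 in the Xcr1 or Clec9a arm. T cell reads went the other way, on 28 of 37 Cd209a barcodes (75.7%), 7 of 13 Xcr1 or Clec9a barcodes (53.8%) and 7 of 51 Fscn1 or Ccl22 barcodes (13.7%). What part these reads play in the gene differences below was not tested, and each comparison is therefore given with all members and without the pigment barcodes.

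The pigment level split the gate at a wide gap. Summed CPM of the 5 pigment genes lay between 12789 and 59616 in 38 members and at 734 or below in the other 77. Of the 38, 35 were in the Fscn1 or Ccl22 arm and 3 had several marks, and none was in the Cd209a or the Xcr1 or Clec9a arm. The melanoma-like class, barcodes with at least 3 of the 5 pigment genes, at most 1 dendritic and at most 1 macrophage gene of the rule and at most 2 of 5 T cell genes, spanned 1396 to 75438 summed CPM, which takes in all 38. The remaining 11 members with pigment reads had them at the low level.

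**Figure D1:**
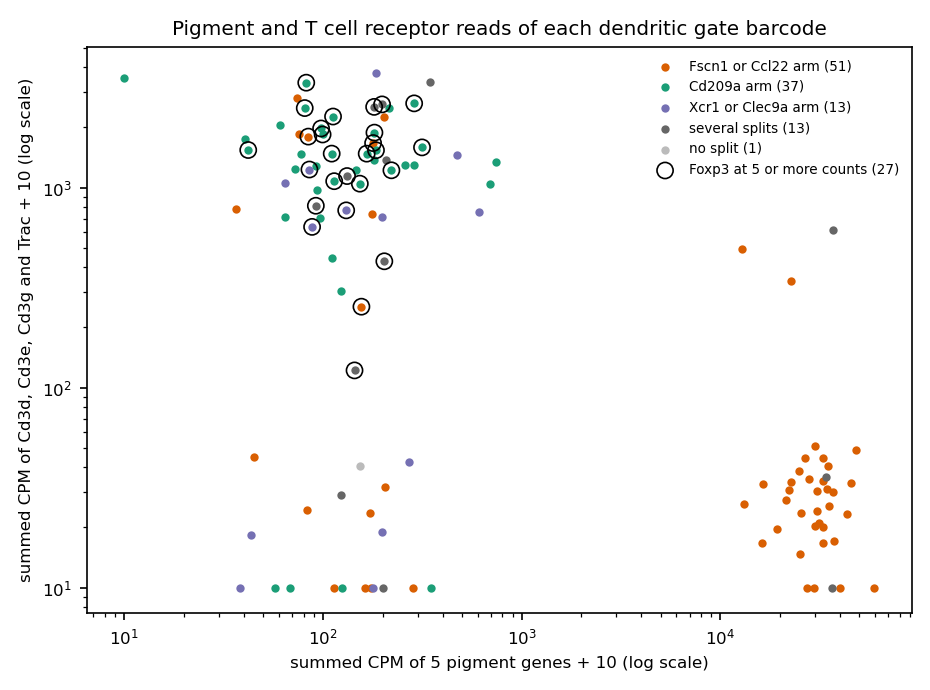
Each point is 1 of the 115 members, with the summed CPM of the 5 pigment genes (horizontal, log scale, 10 added) against that of Cd3d, Cd3e, Cd3g and Trac (vertical, log scale, 10 added). Colours give the arm and rings mark the 27 barcodes with Foxp3 at 5 or more counts. The 38 barcodes on the right, 35 of them in the Fscn1 or Ccl22 arm, lie at 12789 pigment CPM or above and none of them is ringed.

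The label "dendritic cell" did not hold for the whole gate, and in the arms it rests in part on genes of the rule. In the 36 pigment barcodes of the Fscn1 or Ccl22 arm (median 254222 counts), Fscn1 was on all 36 at 79.8 CPM and Zbtb46 on 34 at 42.4 CPM, and these were the genes that admitted most of them. The other dendritic markers were near 0 there: Ccl22 and the lymph node homing receptor Ccr7 were each on 1 of 36 barcodes and Flt3 was on 2, at 3.13 CPM. H2-Ab1 stood at 175 CPM, and the melanosome protein gene Pmel at 6949 CPM. The 1194 melanoma-like barcodes had similar levels, with Fscn1 at 67.2 CPM (on 47.2% of barcodes), H2-Ab1 at 181 CPM and Pmel at 7144 CPM, while Zbtb46 was at 2.20 CPM (on 2.09%). Summed over the melanoma marker list, the level was 30536 CPM in the 36 barcodes and 30814 CPM in the melanoma-like class. These 36 barcodes are called the pigment barcodes of the Fscn1 or Ccl22 arm below. Of them, 35 had melanoma-level pigment counts and are not called dendritic cells here, and neither are the 3 members with several marks at that level. The other one of the 36, at 194 pigment CPM, had Flt3 at 21, Fscn1 at 51, Ccl22 at 33 and Ccr7 at 209 counts with all 4 T cell genes. It was the 1 barcode of the 36 with Ccl22 and with Ccr7.

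The 15 barcodes of that arm without pigment reads (median 40290 counts) had the mature dendritic markers as a group. Fscn1 was on 12 of 15 at 1866 CPM, Ccl22 on 11 at 1617 CPM, Ccr7 on 13 at 2417 CPM and Flt3 on 9 at 175 CPM. The 2 barcodes without Ccr7 also had 0 counts of Ccl22 and Flt3, and 0 and 2 counts of the leukocyte gene Ptprc. Fscn1 and Zbtb46 alone admitted them, and they remain among the 15. H2-Ab1 was on 8 of 15 at 1579 CPM, and the melanoma list summed to 120 CPM. Cd209a counts in the Cd209a arm ran from 5 to 203 with a median of 26, and H2-Ab1 in single barcodes of that arm from 1787 to 12432 CPM with a median of 6314. H2-Ab1 in the Xcr1 or Clec9a arm reached 13226 CPM with a median of 7937. The barcode with the lowest level had 24 counts of H2-Ab1, 0 of Flt3 and 118 of Cd8b1. Every Cd209a barcode thus carried MHC class II reads. The macrophage marker list, part of which the rule held low, summed to between 198 and 568 CPM in the arms without pigment reads, against 14898 CPM in 1395 macrophage-like barcodes (at least 3 of the 7 macrophage genes and at most 1 of the dendritic genes).

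**Figure D2:**
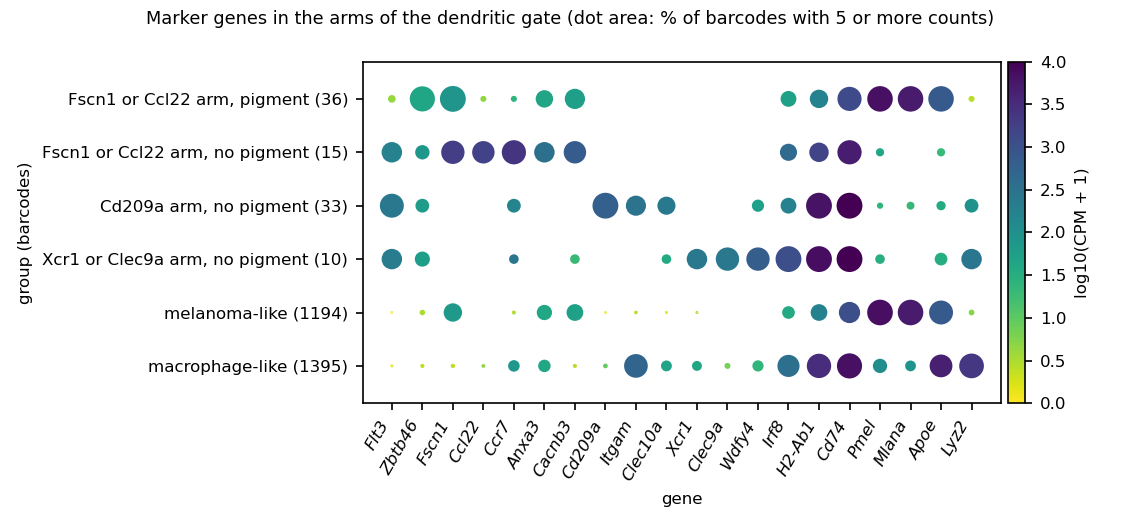
Dot area shows the share of barcodes with 5 or more counts and colour the level as log10(CPM + 1), for marker genes (columns) in 4 sets of members and 2 other classes (rows, number of barcodes in brackets). The pigment barcodes of the Fscn1 or Ccl22 arm have large dots at Zbtb46, Fscn1, Pmel and Mlana and small ones at Flt3, Ccl22 and Ccr7, whereas Fscn1, Ccl22 and Ccr7 are each frequent among the 15 barcodes without pigment reads, 8 of which have all 3.

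Over all members, the Fscn1 or Ccl22 arm differed from the other arms chiefly by genes of pigment cells. With 5 counts added to each sum, 1439 of 9722 genes with at least 100 counts (14.8%) were at least 4-fold higher in the arm and 929 (9.56%) at least 4-fold lower. All 6 measured members of the melanoma marker list were 4-fold higher, with a median log2 ratio of 7.50 against 0.12 over all genes. The 10 named genes with the highest ratios were Cryab, a small heat-shock protein (1357 against 1.89 CPM), Ptgds, Gsta1, Pmel, Aebp1, Gpnmb, Mlana, Rhox5, Tyrp1 and Syt4. Gsta1, a glutathione S-transferase, was at 0 in the other arms and at least 377-fold higher. Of 11 genes of MHC class II presentation, 10 were 4-fold lower (median log2 ratio -3.47), and of 20 genes of the mature or migratory list 7 were higher and 3 lower (median 0.16).

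Without pigment barcodes the mature or migratory genes were higher as a group. In these 15 barcodes against 43 of the other arms, 180 of 4802 genes (3.75%) were at least 4-fold higher and 300 (6.25%) at least 4-fold lower. Of the 20 mature or migratory genes other than those of the rule, 16 were higher and none lower, with a median log2 ratio of 3.84 against -0.08 over all genes. Members of this arm were chosen on Fscn1 and Ccl22, genes of the same state. Ccr7, the receptor that guides dendritic cells to lymph nodes, averaged 2417 CPM in the arm and 187 CPM in the others, a log2 ratio of 3.68. Cacnb3, a calcium channel subunit, stood at 718 against 5.27 CPM (6.64, with 13 counts on the lower side). Cd63, a tetraspanin of endosomes, stood at 1069 against 11.0 CPM (6.37), and Socs2, a suppressor of cytokine signalling, at 523 against 31.2 CPM (4.00). Il12b, the shared subunit of interleukin-12 and interleukin-23, had 513 counts in the arm and 0 in the others (at least 664-fold higher), but 1 barcode held 72.1% of them. Anxa3 and Zmynd15 had 216 and 180 counts in the arm and 1 count each in the others, for log2 ratios of 7.16 (7.22 to 15.02 without the added counts) and 6.90 (6.95 to 14.76). Adcy6, an adenylate cyclase, was at least 140-fold and Clu, a secreted chaperone, at least 131-fold higher, with 58.4% of the Clu counts in 1 barcode. Rhoc, Kdr and Mreg completed the 10 named genes. The 4 endothelial marker genes measured were also 4-fold higher (Egfl7, Kdr, Cdh5 and Pecam1), and 59.4% of the Kdr counts came from 1 barcode. At least 2 endothelial genes were on 2 of the 15 barcodes and on 1 of the 43 others. The part of these reads in the ratios was not tested. Without those barcodes, in a division made after these values were seen, 167 of 4583 genes were 4-fold higher (3.64%) and 332 lower (7.24%), and 17 of the 20 mature or migratory genes were higher and none lower (median 4.07).

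Chemokine and cytokine genes of this arm were partly higher. Of 10 chemokine genes 5 were 4-fold higher and 2 lower, and without the barcodes with endothelial reads 3 of 9 were higher (Ccl17, Ccl5 and Cxcl16) and 1 lower (Cxcl10). Ccl17, which like Ccl22 signals through CCR4, stood at 365 CPM in the arm and 10.6 CPM in the others (log2 ratio 4.89). Most of the Ccl17 counts of the arm came from 1 barcode, with 175, and the next highest had 34. In the other arms 1 barcode, with 26 counts, held all of them. Ccl5 stood at 2378 against 493 CPM (2.27) and Cxcl16 at 431 against 60.1 CPM (2.82), while Ccl3 and Ccl9 were lower. Inhibitory ligands were higher in 3 of 7 cases: Cd274, which encodes PD-L1, at 370 against 86.8 CPM (2.09), Pdcd1lg2, which encodes PD-L2, at 142 against 13.4 CPM (3.28), and Cd200 at 258 against 44.2 CPM (2.52). Among 6 costimulatory genes Cd40 was higher (362 against 53.6 CPM, 2.73) and Cd48 lower, and Cd86 stood at 252 against 177 CPM (0.54, inside the 4-fold limit). Il15ra, the receptor chain that presents interleukin-15, was at 139 against 8.93 CPM (3.74). In contrast, 3 of 11 MHC class II genes were 4-fold lower, H2-Ab1 among them at 1579 against 6565 CPM (-2.05), and 7 of 9 C-type lectin genes were lower (median log2 ratio -2.65). Without the barcodes with endothelial reads, 2 of the MHC class II genes were 4-fold lower (H2-DMb1 and H2-Ob, not H2-Ab1) and 5 of the 9 lectin genes. Of 11 proliferation genes 5 were lower and none higher.

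The Xcr1 or Clec9a arm had higher levels of some further genes of type 1 dendritic cells. Over all members, 375 of 9722 genes were at least 4-fold higher in these 13 barcodes (3.86%) and 1041 lower (10.7%). The named genes were Gatm, an enzyme of creatine synthesis, Rab7b, Wdfy4, Sept3, Naaa, Cd24a, Fam117a, Ifi205, Mpeg1 and BC028528. In the 10 barcodes without pigment reads against 48 others, 95 of 4802 genes were higher (1.98%) and 268 lower (5.58%). Of 8 type 1 genes outside the rule 5 were higher and none lower, with a median log2 ratio of 2.70 against 0.01 over all genes. Naaa, a lipid amidase, averaged 1542 CPM in the arm and 82.4 CPM in the others (4.20). Wdfy4, needed for cross-presentation by type 1 cells, stood at 652 against 40.1 CPM (3.97), and Irf8, the transcription factor of this lineage, at 1101 against 240 CPM (2.19). Rab7b stood at 450 against 18.6 CPM (4.47) and Gatm at 231 against 11.6 CPM (4.13). Fnip2, Pclaf, Rab32, Agpat3, Sept3 and Lipe were the other named genes, with 50.4% of the Pclaf counts and 54.3% of the Fnip2 counts in 1 barcode each. Of 12 type 2 genes 5 were lower (Itgam, Clec4a1, Sirpa, Klf4 and Clec10a) and none higher, and of 20 mature or migratory genes 13 were lower. None of 11 MHC class II genes passed 4-fold in either direction (median 0.26).

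The Cd209a arm was marked by genes of type 2 or monocyte-derived cells and by C-type lectins. Over all members, 784 of 9722 genes were at least 4-fold higher in these 37 barcodes (8.06%) and 1454 lower (15.0%). Itgam, which encodes CD11b, stood at 299 against 1.87 CPM (log2 ratio 7.01), and the lectin Clec10a at 255 against 2.62 CPM (6.38). Cd209d, another lectin of the Cd209 family, was at 0 in the other arms and at least 765-fold higher. Reads that fit several members of the Cd209 family cannot be assigned with certainty, and the labels do not say how such reads were counted. Mefv, Slamf9, Clec4a3, Areg, Mrc1, Cyp7b1 and Cd7 were the other named genes. In the 33 barcodes without pigment reads against 25 others, 95 of 4802 genes were higher (1.98%) and 147 lower (3.06%). Itgam was then at 0 in the other arms and at least 133-fold higher, Clec10a stood at 245 against 19.7 CPM (3.40) and Irf4, a transcription factor of type 2 cells, at 83.1 against 12.9 CPM (2.36). Cd7 stood at 439 against 12.1 CPM (4.79) and Ifitm1 at 950 against 64.5 CPM (3.80), while Cd209d, Slamf9 and Mefv were at 0 in the other arms. Lef1, Clec4a3 and Cd300c2 had 1 to 3 counts there. Of 12 type 2 genes 4 were higher and none lower (median 1.09), and of 9 C-type lectin genes 6 were higher (median 2.33). Of 8 type 1 genes 6 were lower, and of 20 mature or migratory genes 11.

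T cell genes moved with this arm. Over all members, 12 of 12 T cell genes and 13 of 14 regulatory T cell genes were 4-fold higher in the Cd209a arm. Without pigment barcodes 1 of 12 T cell genes was (median log2 ratio 0.81), and 2 of 14 regulatory T cell genes, Areg and Ikzf4 (median 0.85). Areg, which encodes the growth factor amphiregulin, stood at 153 against 3.03 CPM in that set of barcodes, a log2 ratio of 4.52. Trac, the T cell receptor alpha constant gene, stood at 668 against 349 CPM (0.93).

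Lists of arm markers stood apart also in the 28 members with neither pigment nor T cell reads, where fewer genes reached the count minimum. Among the 10 Fscn1 or Ccl22 barcodes of this kind, 131 of 1974 genes were at least 4-fold higher than in the other arms (6.64%) and 140 lower (7.09%), with 11 of 14 mature or migratory genes higher and none lower (median log2 ratio 4.28). The 10 genes named there were Timp3, Col4a1, Cd63, Egfl7, Plvap, Spred1, Kdr, Cldn5, Zmynd15 and Ccr7, of which Timp3, Col4a1, Egfl7, Plvap, Kdr and Cldn5 are known as genes of vessels, and 1 barcode held between 54.4% and 93.1% of the counts of each of these 6. The 5 Xcr1 or Clec9a barcodes had 58 genes higher (2.94%) and 206 lower (10.4%). Wdfy4, Naaa, Cd24a and Irf8, 4 of the 6 type 1 genes measured, were among those higher, and Wdfy4 stood at 925 against 32.0 CPM. The 9 Cd209a barcodes had 63 genes higher (3.19%) and 118 lower (5.98%), with 4 of 6 type 2 genes higher (Itgam, Clec10a, Mgl2 and Ccr2) and 1 lower (Notch2). Itgam had 185 counts there and 0 in the other arms (at least 115-fold higher), with 40.5% of them in 1 barcode. Against macrophage-like barcodes, the 28 members had 1322 of 13847 genes at least 4-fold higher (9.55%) and 452 lower (3.26%), and 9 of 20 mature or migratory genes were higher.

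**Figure D3:**
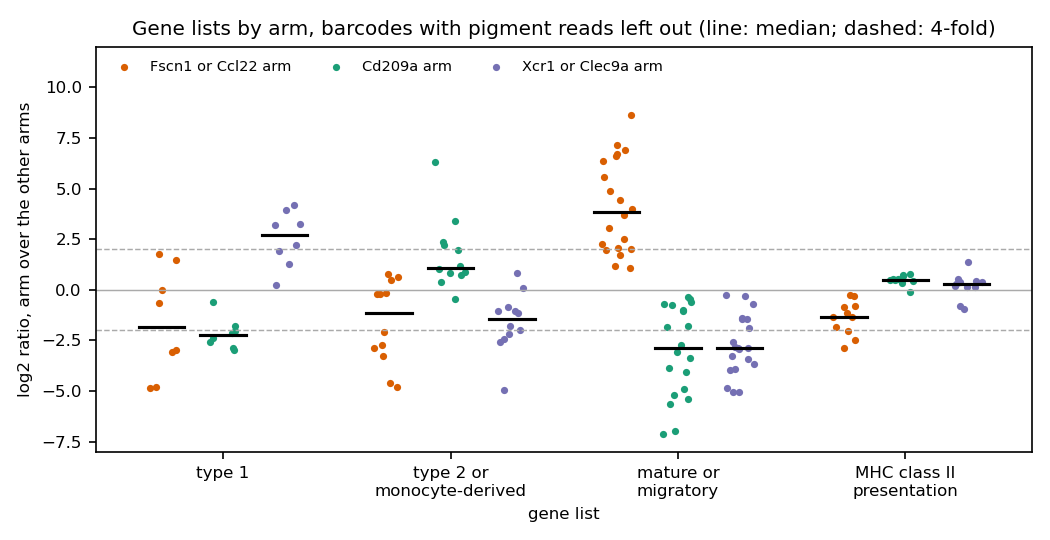
Points are genes of 4 lists (horizontal) and their log2 ratio of CPM in 1 arm over the other arms (vertical), with pigment barcodes and genes of the rule left out, lines at the median and dashed lines at 4-fold. The medians of the mature or migratory list were 3.84 in the Fscn1 or Ccl22 arm, -2.86 in the Xcr1 or Clec9a arm and -2.89 in the Cd209a arm, and MHC class II genes lay close to 0 in the Cd209a and Xcr1 or Clec9a arms.

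Set against macrophage-like barcodes, the class of the capture most like them, the members without pigment reads had more of H2-O and of some dendritic cell genes and less of many macrophage and chemokine genes. Both classes were defined by the macrophage and dendritic genes of the rule, in opposite directions. Levels of genes that vary with those were therefore partly fixed by the gates and are given as description. With all 115 members, 1244 of 14404 genes were at least 4-fold higher (8.64%) and 736 lower (5.11%). The 10 named higher genes were Pla2g2e, Slc4a4, Col18a1, Scn8a, Chsy3, Sspn, Myl9, Pax3, Agt and Car6. Of these, 4 turned lower once pigment barcodes were left out: Chsy3 (log2 ratio -0.14), Pax3 (-0.87), Agt (-0.61) and Car6 (-1.59). The named lower genes included Pf4, Msr1, Trem2, Fpr2, C5ar1, Ccl7, Lpl, Klra2 and Ccl8.

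In the 66 members without pigment reads against 1395 macrophage-like barcodes, 554 of 13913 genes were at least 4-fold higher (3.98%) and 440 lower (3.16%). H2-Ob and H2-Oa, the 2 chains of H2-O, which inhibits peptide loading of class II, stood at 126 against 2.71 CPM (log2 ratio 5.53) and at 91.5 against 4.50 CPM (4.35). H2-Ab1 itself stood at 5740 against 3055 CPM (0.91), inside the 4-fold limit, on 87.9% against 87.7% of barcodes. Kmo, an enzyme of tryptophan breakdown, was at 68.4 against 2.86 CPM (4.58) and Dpp4, which encodes CD26, at 173 against 34.6 CPM (2.33). Sept3, Cd24a, Serpinb1a, Cbfa2t3 and Socs2 were also among the 10 highest, with log2 ratios between 3.74 and 6.79. The other named genes on the higher side were of regulatory T cells: Lrrc32 at 98.3 against 4.65 CPM (4.41) and Foxp3 at 169 against 8.18 CPM (4.37). On the lower side, the lipoprotein gene Apoe stood at 28.3 against 4480 CPM (-7.24). Pf4 was at 0 and at least 384-fold lower, and C5ar1 at least 181-fold. Ccl8, Ccl7, Ms4a7, Lpl, Msr1 and Trem2 were also named there.

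Lists divided in the same way. Of 21 mature or migratory genes 9 were higher than in macrophage-like barcodes and none lower (median 1.57 against 0.17 over all genes). Of 12 chemokine genes 1 was higher and 6 lower (median -2.03), with Cxcl9 at 149 against 1049 CPM (-2.80) and Ccl4 at 220 against 1035 CPM (-2.22). Of 15 Toll-like receptor genes and adaptors 5 were lower, Tlr7 among them at 0 counts, and of 15 C-type lectin genes 8 were lower and 1 higher. The Nr4a genes, a family named in the label of the knockout, had no member past 4-fold: Nr4a1 stood at 401 against 199 CPM (1.02), Nr4a2 at 796 against 670 CPM (0.25) and Nr4a3 at 395 against 118 CPM (1.74). Among T cell genes the 2 classes differed by lineage, with Cd4 at 67.8 against 11.3 CPM (2.61) and Cd8a at 108 against 468 CPM (-2.10), while Trac stood at 526 against 412 CPM (0.35). Of 15 regulatory T cell genes 6 were higher (Lrrc32, Foxp3, Ikzf2, Izumo1r, Il2ra and Ikzf4) and none lower.

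Foxp3 was on 27 of the 115 members at 5 or more counts (23.5%, 16.1 to 32.3%). The 27 barcodes had between 6 and 115 Foxp3 counts with a median of 28, and 10 further members had 1 to 4 counts. Median depth was 78085 counts in Foxp3-positive and 81096 in Foxp3-negative members. Without pigment barcodes it was 76940 against 43832 counts, and among members with T cell reads and no pigment reads 78075 against 44388, so the positive members were then the deeper ones. The part of depth in the Foxp3 comparisons was not tested. By arm, Foxp3 was on 15 of 37 Cd209a barcodes (40.5%, 24.8 to 57.9%), 3 of 13 Xcr1 or Clec9a barcodes (23.1%, 5.04 to 53.8%) and 3 of 51 Fscn1 or Ccl22 barcodes (5.88%, 1.23 to 16.2%). Members with several marks had it in 6 of 13 cases (46.2%, 19.2 to 74.9%). The low share of the Fscn1 or Ccl22 arm lay in its pigment barcodes, with 0 of 36 (exact upper bound 9.74%), while its barcodes without pigment reads had 3 of 15 (20%, 4.33 to 48.1%). Intervals of the 3 arms without pigment reads overlapped, with 13 of 33 Cd209a barcodes (39.4%, 22.9 to 57.9%) and 2 of 10 Xcr1 or Clec9a barcodes.

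Shares with and without T cell reads lay further apart than those of the arms. Foxp3 was on 25 of 50 members with T cell reads (50%, 35.5 to 64.5%) and on 2 of 65 without them (3.08%, 0.375 to 10.7%). Of those 65, 37 had pigment reads, and none of the 37 was positive. Without pigment barcodes the shares were 21 of 38 (55.3%, 38.3 to 71.4%) and 2 of 28 (7.14%, 0.877 to 23.5%). The intervals did not overlap in either case, but they cover counting error within 1 capture and are no test. Of the 27 Foxp3-positive members 15 had all 4 of Cd3d, Cd3e, Cd3g and Trac, 8 had 3, 2 had 2 and 2 had 1, so none was without a T cell gene. Of the 88 Foxp3-negative members 50 had none of the 4. Within the Cd209a arm without pigment reads, Foxp3 was on 13 of 24 barcodes with T cell reads (54.2%, 32.8 to 74.4%) and on 0 of 9 without (exact upper bound 33.6%). The 2 Foxp3-positive members without T cell reads had 42 and 14 Foxp3 counts. The one with 42 had 70 counts of Il2ra and none of H2-Ab1, and the one with 14 had 118 counts of Fscn1, 103 of Ccl22 and 28 of H2-Ab1.

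Other classes of the capture give the background. Neutrophil-like barcodes had Foxp3 in 0 of 95 cases (exact upper bound 3.81%, median depth 9574 counts), melanoma-like barcodes in 5 of 1194 (0.419%, 0.136 to 0.975%, median depth 152982) and macrophage-like barcodes without T cell reads in 2 of 514 (0.389%, 0.0472 to 1.40%, median depth 46745). The 65 members without T cell reads, at 3.08% and a median of 128430 counts, included the 37 with pigment reads alone, none of them positive. The interval of the 65 overlapped those of the melanoma-like and macrophage-like barcodes. The Foxp3 level of the 65 was 5.68 CPM (4.32 to 7.32). It was 2.20 CPM (1.70 to 2.80) in macrophage-like barcodes without T cell reads and 0.965 CPM (0.828 to 1.12) in melanoma-like ones. Of the 59 Foxp3 counts behind the 5.68 CPM, 56 came from 2 barcodes. These intervals count reads and not barcodes, so they cannot tell the classes apart. Of the 28 members with neither kind of read 2 were positive (7.14%, 0.877 to 23.5%), and their 42 and 14 counts gave all of the 43.1 CPM (32.5 to 56.0) of that group. Members with T cell reads lay above every other class examined. Macrophage-like barcodes with T cell reads had Foxp3 in 41 of 881 cases (4.65%, 3.36 to 6.26%), with a median depth of 67462 counts in the members and 92168 in these barcodes. T-like barcodes (at least 3 of Cd3d, Cd3e, Cd3g, Trac and Trbc2) had it in 657 of 5855 (11.2%), CD8 T-like barcodes in 76 of 3355 (2.27%) and CD4 T-like barcodes in 257 of 811 (31.7%, 28.5 to 35.0%). Thinned to 20000 counts per barcode with presence at 2 counts, members with T cell reads had Foxp3 in 23 of 50 cases (46.0%, 31.8 to 60.7%), CD4 T-like barcodes in 203 of 512 (39.6%, 35.4 to 44.0%) and macrophage-like barcodes with T cell reads in 39 of 871 (4.48%, 3.20 to 6.07%). At equal depth the intervals of members and CD4 T-like barcodes thus overlapped, and that of the macrophage-like barcodes did not overlap them. These intervals cover counting error within 1 capture and are no test. Thinning left out none of the 50 members, 299 CD4 T-like and 10 macrophage-like barcodes.

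**Figure D4:**
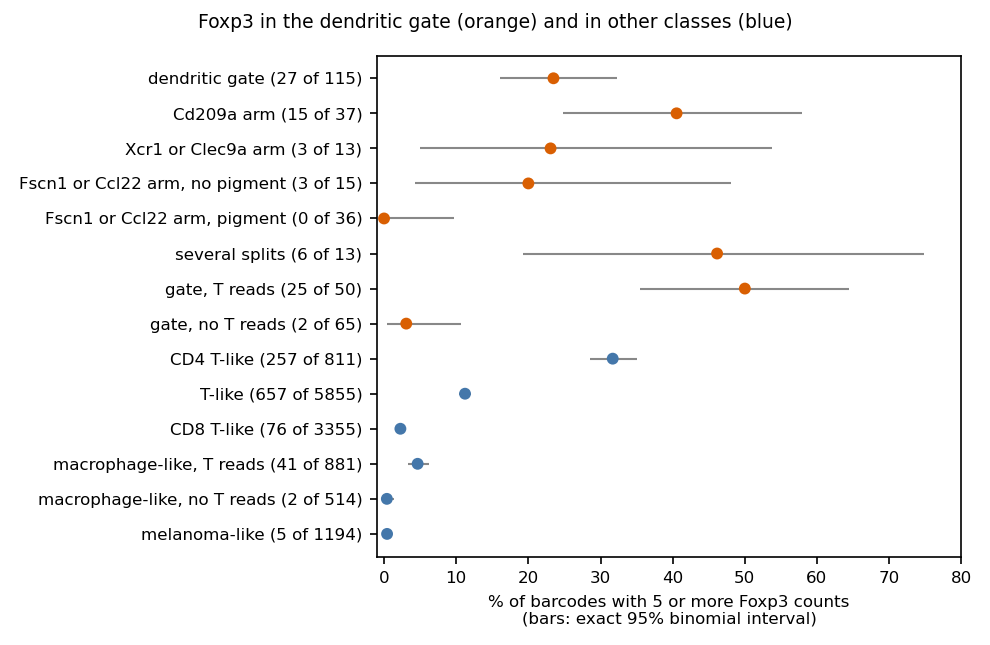
Points are the share of barcodes with 5 or more Foxp3 counts (horizontal, percent) in sets of the dendritic gate (orange) and in other classes (blue), with positive and total barcodes in brackets and bars for the exact 95% binomial interval. Members with T cell reads reached 50%, members without them 3.08%, and macrophage-like barcodes with T cell reads 4.65%. Of the 65 members without T cell reads, 37 had pigment reads, and none of the 37 was positive.

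Members with T cell reads carried Cd4 more often and Cd8b1 less often than macrophage-like barcodes with such reads. Both genes occurred in the members: Cd4 was on 16 and Cd8b1 on 7 of the 25 with Foxp3. In the 25 without it, Cd4 was on 6 and Cd8b1 on 10. Cd4 was on 22 of 50 members with T cell reads (44.0%, 29.99 to 58.7%), against 59 of 881 macrophage-like barcodes with such reads (6.70%, 5.14 to 8.55%). Cd8b1, a CD8 chain, was on 17 of 50 (34.0%, 21.2 to 48.8%) against 784 of 881 (89.0%, 86.7 to 91.0%). Neither pair of intervals overlapped. In a division made after these values were seen, Foxp3 was on 16 of 22 members with both T cell reads and Cd4 (72.7%, 49.8 to 89.3%), against 17 of 59 such macrophage-like barcodes (28.8%, 17.8 to 42.1%). Without Cd4 it was on 9 of 28 members (32.1%, 15.9 to 52.4%), against 24 of 822 macrophage-like barcodes (2.92%, 1.88 to 4.31%). Median depths were 78080 and 63398 counts in the members, against 108145 and 90970 in the macrophage-like barcodes. The part of the balance of Cd4 and CD8 reads in these Foxp3 shares was not tested.

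Foxp3 was next set against the T cell reads themselves, as counts per 100 counts of Cd3d, Cd3e, Cd3g and Trac, with groups compared and not genes. The intervals treat reads as independent and leave out the spread between barcodes, so they are too narrow. Of the 831 Foxp3 counts of members with T cell reads, 1 barcode held 115. Members with T cell reads had 13.2 Foxp3 counts per 100 (12.2 to 14.1), against 8.56 in CD4 T-like barcodes (8.36 to 8.76), 0.579 in macrophage-like barcodes with T cell reads (0.542 to 0.618) and 0.378 in CD8 T-like barcodes (0.360 to 0.395). The ratio was also 17.2 in members without T cell reads and 4.67 in melanoma-like barcodes. The 4 genes had only 343 and 3787 counts there. Among members chosen for both T cell reads and Foxp3 the ratio was 23.5 (21.7 to 25.4), and among CD4 T-like barcodes chosen for Foxp3 it was 20.97 (20.5 to 21.5). Members with T cell reads but no Foxp3 had 0.630 (0.373 to 0.998). The total level of the 4 T cell genes was alike in both sets of members, 1494 CPM with Foxp3 and 1505 CPM without it. It was 3524 CPM in the Foxp3-positive CD4 T-like barcodes. Those had to carry at least 3 of 5 T cell genes, at a median depth of 32750 counts, against 82810 in the Foxp3-positive members.

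**Figure D5:**
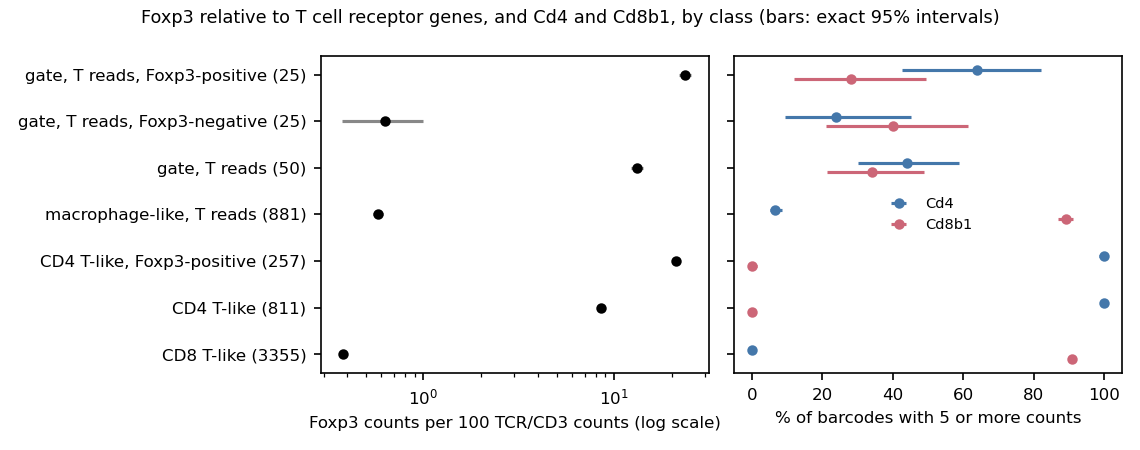
Left, Foxp3 counts per 100 counts of 4 T cell receptor and CD3 genes (log scale), and right, the share of barcodes with Cd4 and with Cd8b1, for members with T cell reads and 4 other classes, with exact 95% intervals as bars and barcode numbers in brackets. The ratio was 23.5 in Foxp3-positive members and 20.97 in Foxp3-positive CD4 T-like barcodes, both chosen for Foxp3, which partly fixes it. It was 0.579 in macrophage-like barcodes with T cell reads and 0.378 in CD8 T-like barcodes. CD4 and CD8 T-like classes were defined by Cd4 and CD8 genes, which fixes their values on the right.

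Foxp3-positive members carried a wider set of regulatory T cell genes. Over all members, 470 of 10078 genes were at least 4-fold higher in Foxp3-positive barcodes (4.66%) and 1360 lower (13.5%), and 12 of 13 regulatory T cell genes were higher (median log2 ratio 3.71 against -0.07 over all genes). In the same fit 7 of 12 T cell genes were higher and 6 of 6 melanoma genes lower. Areg stood at 172 against 1.15 CPM (6.81), Il2ra, which encodes CD25, at 432 against 17.9 CPM (4.57) and Lrrc32, which encodes GARP, a receptor for latent TGF-beta, at 162 against 7.21 CPM (4.43). Trat1, Bmyc, Klrg1, Izumo1r, Tmem154, Abcg1 and Hist1h2ao were the other named higher genes. The named lower genes, among them Cryab, Pmel, Dct, Sparc, Mlana, Syt4, Gpnmb and Ptgds, were those of the pigment barcodes. Aebp1 and Gsta1, the rest of the 10, had 1 and 0 counts in the Foxp3-positive barcodes.

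Without pigment barcodes, 23 Foxp3-positive and 43 Foxp3-negative members were compared, and 61 of 5369 genes were higher (1.14%) and 90 lower (1.68%). Of 13 regulatory T cell genes 5 were still at least 4-fold higher (median 1.89 against 0.02 over all genes). Areg stood at 202 against 4.89 CPM (4.81), Lrrc32 at 200 against 15.1 CPM (3.53) and Ikzf4, which encodes Eos, a partner of Foxp3, at 111 against 9.77 CPM (3.22). Il2ra stood at 410 against 80.1 CPM (2.32) and the inhibitory receptor gene Ctla4 at 1305 against 299 CPM (2.12). Ikzf2, which encodes Helios, stood just inside the limit at 603 against 161 CPM (1.89). None of 12 T cell genes passed it (median 0.63), with Trac at 802 against 301.4 CPM (1.41). Kif23, Ube2c, Ncaph, Traf4, Nt5c3b, Haus3 and Birc5 were also named on the higher side. Of 14 proliferation genes 3 were higher. With presence at 10 counts Ube2c (-1.18), Ncaph (-0.032) and Birc5 (-0.31) were lower instead, and 54.0% of the Ube2c counts and 52.1% of the Nt5c3b counts came from 1 barcode each. Vps37a, Rfxap, Cers6, Mllt4, Cul5, Riok2, Rasa4, Pcyt2, Nfat5 and Axin1 were named on the lower side. With only barcodes that had T cell reads and no pigment reads, 21 against 17, 68 of 4047 genes were higher (1.68%) and 36 lower (0.890%). There 3 of 13 regulatory T cell genes stayed 4-fold higher, Areg, Lrrc32 and Ikzf4 (median 1.12), while none of 12 T cell genes did (median -0.40).

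Dendritic cell genes were on the same barcodes. Among the 27 Foxp3-positive members, H2-Ab1 was on 25, Cd74, the class II invariant chain, on 26, Flt3 on 21 and Cd209a on 19, beside Ctla4 on all 27. Flt3 and Cd209a are genes of the rule, so the gate partly fixed their presence. Without pigment barcodes H2-Ab1 stood at 5568 CPM in Foxp3-positive and 5881 CPM in Foxp3-negative members (-0.08), and Cd74 at 10436 and 10877 CPM (-0.06). None of the 30 measured genes of the general, type 1 and type 2 dendritic lists passed 4-fold between them, and of 20 mature or migratory genes 2 were higher and 2 lower. Set beside CD4 T-like barcodes with Foxp3, members with T cell reads and Foxp3 had H2-Ab1 at 5625 against 242 CPM and Flt3 at 162 against 2.73 CPM, and Foxp3 itself at 351 against 739 CPM. The Flt3 values were partly fixed by the gates, since T-like barcodes had at most 1 dendritic gene of the rule. Trac stood at 703 against 1569 CPM, Ikzf2 at 529 against 1130 CPM, Ctla4 at 1306 against 2643 CPM and Il2ra at 416 against 854 CPM in the same pair. Foxp3, Trac, Ikzf2, Ctla4 and Il2ra were thus all lower in the members, by similar ratios, while Lrrc32 stood at 168 against 230 CPM. Whether 1 barcode held 1 cell or several was not tested.

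Hashtag calls of the members were uneven. A single hashtag was called on 66 of 115 members, several on 34 and none on 15. Among the 50 members with T cell reads 16 had several, against 485 of 1395 macrophage-like, 706 of 5855 T-like and 1934 of all 11318 barcodes. The median hashtag count was 34 per member, against 36 in macrophage-like and 9 in T-like barcodes, so the classes were not read to the same depth. Single calls fell on A0301 in 32 members, A0306 in 17, A0305 in 10, A0304 in 5 and A0302 and A0303 in 1 each. Of all barcodes with the call, these were 1.93% of 1662 for A0301, 1.72% of 990 for A0306 and 1.13% of 886 for A0305. They were 1.11% of 452 for A0304, 0.362% of 276 for A0302 and 0.208% of 480 for A0303. Of the 27 Foxp3-positive members 8 were called A0301, 4 A0306 and 2 A0305, 10 had several hashtags and 3 none, so Foxp3 was found under 3 of the hashtags. A0302, A0303 and A0304 had too few members to compare.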

How the data were processed

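The deposited mRNA table holds whole-number counts per gene and barcode, and the deposited hashtag table counts per hashtag and barcode. Per the submitters' processing notes, the build was GRCm38, and R 3.5.3, cutadapt 2.10 and Bowtie2 in its versions 2.4.2 and 2.3.4.1 were used, with no role given. Per the labels, read 1 holds a molecular identifier. The labels do not say whether counts were collapsed by it. The median non-zero value was 7, so counts were treated as reads, which are not independent molecules. Intervals and floors of summed counts therefore cover the counting error of reads only. They are too narrow for molecules and leave out the spread between barcodes.

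Members were found by the stated rule, without clustering. All other classes had at most 1 dendritic gene of the rule and, macrophage-like barcodes aside, at most 1 macrophage gene; T-like barcodes had at most 1 pigment gene. Neutrophil-like barcodes had 3 of 5 neutrophil genes. CD4 and CD8 T-like barcodes were T-like with Cd4 alone or a CD8 gene alone. No doublet caller was run. A hashtag was called by comparing its counts with the background of the hashtag table. Log2 ratios compare summed CPM with 5 counts added to each sum, among genes with 100 or more counts, leaving out the genes of the rule (and Foxp3 where it divides the groups). The floor under a "fold of at least" is 3 counts over the group. Shares have exact (Clopper-Pearson) 95% intervals and sums exact Poisson intervals. For each arm the 10 highest called ratios present in 20% of barcodes were named, and for the other comparisons also the 10 lowest, of which 1 gene is not reported here. Members and gene lists (20 of markers, 15 of pathways, 346 genes, 3 not in the table) were chosen with earlier results of these data known. Each list count leaves out genes under the count minimum. Gene positions are from GENCODE M21. Work was done in Python 3.11.15 with scipy 1.17.1, pandas 2.3.3, numpy 2.4.6 and matplotlib 3.10.9, and the calculations were tested on simulated data. Alternatives were other count minimums, added counts, mean CPM, depth limits, thinning, single hashtags left out, and pigment, endothelial or T cell barcodes left out.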

Additional observations from a re-analysis of the deposited data

Results flagged for a closer look

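Hashtags A0307 to A0312, which the labels do not list for this capture, had 167 counts on 20 of the 115 dendritic gate barcodes, above the floor of 3 counts. They made up 0.262% of the 63673 hashtag counts on these barcodes, against 7.67% of the counts in the background of the hashtag table. No comparison uses these hashtags.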

How the results depend on the processing

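No paired analysis was possible because the 2 samples are 2 libraries of 1 capture and no comparison rests on replicates. Of the alternatives chosen at the start, at most 10% mitochondrial counts, at least 1000 genes, a minimum of 20 counts and median-ratio scaling moved no share outside its interval and no count of genes by over 1.5 times, and neither did leaving out any single hashtag.

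With presence at 10 counts the dendritic share of barcodes was 0.636% and that of members with Fscn1 or Ccl22 41.7%, and the counts of genes past 4-fold were 1577 for the Fscn1 or Ccl22 arm (2368 as reported), 1358 for the Cd209a arm (2238) and 922 for Foxp3 (1830). With presence at 1 count the dendritic share was 2.47%, Cd209a was on 19.7% and Xcr1 or Clec9a on 62.7% of members, and the counts were 624 for Foxp3 and 995 against macrophage-like barcodes (1980). With no macrophage gene allowed, the dendritic share was 0.716%, and Xcr1 or Clec9a was on 11.1%, Fscn1 or Ccl22 on 65.4% and Foxp3 on 14.8% of members. Without the 566 barcodes above 201047 counts, 26 of them members, the dendritic share was 0.828%, Cd209a was on 49.4% and Fscn1 or Ccl22 on 41.6%, and the counts were 1203 (Fscn1 or Ccl22), 805 (Xcr1 or Clec9a, 1416 as reported), 915 (Cd209a), 678 (Foxp3) and 1210 (macrophage-like). Without members with T cell reads, Cd209a was on 16.9%, Fscn1 or Ccl22 on 73.8% and Foxp3 on 3.08%. Thinned to 20000 counts, Fscn1 or Ccl22 was on 35.1%. Adding 1 count gave 2436 genes for the Xcr1 or Clec9a arm, and adding 20 gave 793 there, 1298 for Cd209a and 950 for Foxp3. The mean of CPM per barcode gave 1110 for Foxp3.

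Further alternatives were chosen after seeing the data. Without pigment barcodes the dendritic share was 0.586%, Cd209a was on 57.6%, Fscn1 or Ccl22 on 30.3% and Foxp3 on 34.8% of members and on 20% of the Fscn1 or Ccl22 arm, and the counts were 480 (Fscn1 or Ccl22), 363 (Xcr1 or Clec9a), 242 (Cd209a), 151 (Foxp3) and 994 (macrophage-like). Without pigment barcodes or those with endothelial reads the Fscn1 or Ccl22 arm had 499 genes. Without pigment or T cell barcodes Fscn1 or Ccl22 was on 42.9%, and the arms' counts were 271, 264 and 181. With only T cell barcodes free of pigment reads, Foxp3 was on 55.3% of members and 40% of the Fscn1 or Ccl22 arm, with 104 genes past 4-fold.

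Among single genes (log2 ratios), Ube2c (-1.18), Ncaph (-0.032) and Birc5 (-0.31) reversed with presence at 10 counts, and Fnip2 (-0.38), Rab32 (-0.33), Nt5c3b (-0.030), Cers6 (0.85), Nfat5 (0.15) and Axin1 (0.20) at 1 count. Cers6 (0.73) also reversed without T cell reads. Without pigment barcodes Dct (0.30), Gpnmb (0.32), Ptgds (0.96), Chsy3 (-0.14), Pax3 (-0.87), Agt (-0.61) and Car6 (-1.59) reversed, without pigment or T cell barcodes Pax3 (-0.20) and Car6 (-0.59), and among T cell barcodes free of pigment reads Dct (0.52). The cause was not tested.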
